A study of Mus musculus with 2 samples.

Results

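Of 2958 peaks on chromosomes 1 to 19, 516 (17.4%, Wilson 95% interval 16.1 to 18.9%) had a summit over 1000 and up to 10000 bp from the nearest end of a protein-coding gene. They are called gene-proximal peaks here. They were taken from the deposited list by the position of the summit and the gene spans of GRCm38 alone, so peak strength had no part in the choice. In 287 peaks the summit lay inside the gene whose end was nearest, and in 229 it lay outside that gene. Of the 229 outside peaks, 21 stood inside another protein-coding gene.

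The peaks come from chromatin immunoprecipitation with sequencing (ChIP-seq) of muscle stem cells sorted by flow cytometry. The mice were C57BL/6 with a yellow fluorescent protein knock-in at Pax7 (Pax7-YFP KI) and were untreated, and both libraries share this genotype. The ChIP library was made with an antibody against GFP and had 10622111 tags after filtering, and the input DNA library had 20429667. How YFP is joined to PAX7 in these mice, the age of the mice and the number of mice in a library are not given in the sources used here, and ChIP from cells without YFP was not analysed here. With 1 library of each kind there was no replicate and no test between libraries or between peaks. Every interval covers counting error only. Intervals of the fold enrichment cover that of the ChIP fragments alone, with the input background held fixed. A peak list holds no expression, so the cell label could be read at loci alone. Gene-proximal peaks were nearest to 3 of 12 marker genes of muscle stem cells (Vcam1, Sdc4 and Fgfr4), against 2.30% of all protein-coding genes. Pax7, Calcr, Itga7, Cd34, Cxcr4, Cdh15, Chrdl2, Heyl and Spry1 had none. Peaks at any distance were nearest to 7 of the 12, and the share of all genes for this was not analysed here.

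PAX7 is a transcription factor with a paired domain and a homeodomain, and it marks the stem cells that lie beneath the basal lamina of muscle fibres and keeps them able to form muscle. Paired domains bind sites with a GTCACG core, and pairs of homeodomains bind a palindrome of TAAT and ATTA. Sequence just outside a gene's start, inside its opening introns and beyond its end can hold regulatory elements, and many genes also begin transcription at more than one place inside their span.

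That last feature could be read directly for part of the peaks, because 48 of the 516 gene-proximal peaks (42 inside, 6 outside) overlapped a promoter window of RefSeq. Such a window runs from 250 bases before to 50 after a listed transcription start. A window was overlapped by 655 of all 2958 peaks of chromosomes 1 to 19, and by 565 of the 863 peaks up to 1000 bp from a gene end. In 31 of the 48 gene-proximal peaks the summit itself fell in the window of a protein-coding gene. The stretches that peak and window share are printed for 8 of these, namely 6 of those with the highest fold enrichment, which show what sequence strong peaks of this kind lie on, and 2 further genes of the gene lists. Pdss2 and Rcc1l are tied at 9.10-fold with Rgmb and Zfp688, which are not printed. Each stretch is from RefSeq (GRCm38.p6) and reads from 5′ to 3′ on the strand of the gene. Capitals mark matches on either strand to GGGCGG (a GC box), TGACGTCA (a cyclic AMP response element), CCAAT (bound by the factor NF-Y), TGANTCA (an AP-1 site) or GTCACG (the paired domain core), so that the reverse complement of each is in capitals as well.
Atp5g3 (chr2:73911295-73911550, strand -): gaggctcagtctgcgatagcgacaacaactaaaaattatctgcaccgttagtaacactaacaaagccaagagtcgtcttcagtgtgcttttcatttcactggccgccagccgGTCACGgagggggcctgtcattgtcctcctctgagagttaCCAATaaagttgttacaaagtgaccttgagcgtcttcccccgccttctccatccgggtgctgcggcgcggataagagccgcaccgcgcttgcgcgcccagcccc
Rcan1 (chr16:92400029-92400328, strand -): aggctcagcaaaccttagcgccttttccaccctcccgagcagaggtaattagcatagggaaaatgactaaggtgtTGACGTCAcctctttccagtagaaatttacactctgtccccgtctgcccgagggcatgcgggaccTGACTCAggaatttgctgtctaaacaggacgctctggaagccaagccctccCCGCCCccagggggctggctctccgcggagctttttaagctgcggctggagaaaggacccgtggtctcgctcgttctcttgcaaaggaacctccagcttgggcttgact
Ccnl1 (chr3:65958200-65958499, strand -): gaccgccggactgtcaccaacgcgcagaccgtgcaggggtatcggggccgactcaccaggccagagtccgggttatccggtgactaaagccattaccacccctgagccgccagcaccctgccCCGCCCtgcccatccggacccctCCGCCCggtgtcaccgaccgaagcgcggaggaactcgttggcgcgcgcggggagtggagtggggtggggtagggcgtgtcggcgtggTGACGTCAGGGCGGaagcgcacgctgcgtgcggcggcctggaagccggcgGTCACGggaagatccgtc
Ift46 (chr9:44772804-44772976, strand +): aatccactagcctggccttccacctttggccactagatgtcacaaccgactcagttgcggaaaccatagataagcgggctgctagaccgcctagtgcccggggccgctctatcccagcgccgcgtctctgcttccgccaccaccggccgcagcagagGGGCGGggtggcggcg
Pdss2 (chr10:43221316-43221507, strand +): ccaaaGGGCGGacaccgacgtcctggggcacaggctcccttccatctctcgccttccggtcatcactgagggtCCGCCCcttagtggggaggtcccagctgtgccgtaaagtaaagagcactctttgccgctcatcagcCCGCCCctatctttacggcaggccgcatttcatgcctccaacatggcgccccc
Rcc1l (chr5:134176718-134176833, strand -): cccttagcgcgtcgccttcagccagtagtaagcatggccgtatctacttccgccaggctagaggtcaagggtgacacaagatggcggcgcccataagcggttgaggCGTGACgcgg
Tgif1 (chr17:70851768-70851984, strand -): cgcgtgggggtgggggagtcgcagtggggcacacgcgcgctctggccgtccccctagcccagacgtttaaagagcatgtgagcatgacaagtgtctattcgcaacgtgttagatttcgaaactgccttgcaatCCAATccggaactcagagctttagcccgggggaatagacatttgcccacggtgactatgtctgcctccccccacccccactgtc
Nr4a1 (chr15:101266698-101266869, strand +): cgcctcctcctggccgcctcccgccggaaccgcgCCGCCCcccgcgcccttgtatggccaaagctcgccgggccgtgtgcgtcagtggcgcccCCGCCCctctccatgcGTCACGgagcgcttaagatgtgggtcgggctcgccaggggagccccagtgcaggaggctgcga
Atp5g3 encodes a subunit of the mitochondrial ATP synthase, Ccnl1 a cyclin of RNA processing, Ift46 a protein of intraflagellar transport, Pdss2 an enzyme of coenzyme Q synthesis and Rcc1l a mitochondrial protein. Rcan1 encodes an inhibitor of calcineurin, Tgif1 a homeodomain repressor in TGF-beta signalling and Nr4a1 an orphan nuclear receptor induced by many stimuli. The summit lay upstream of the listed start in 7 of the 8, from 67 bp at Nr4a1 to 181 bp at Ccnl1, and 35 bp downstream of it at Rcc1l.

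A GTCACG match stood in 11 of the 37 windows that held the summit of a gene-proximal peak (29.7%, Wilson interval 17.5 to 45.8%). It stood in 8.31% of all 31396 windows, in 9.98% of the 20085 windows of protein-coding genes, and in 31.5% of the 556 windows under the summits of gene-end peaks, those up to 1000 bp from a gene end. GGGCGG was found in 26 of the 37 windows (70.3%, 54.2 to 82.5%), against 47.0% of protein-coding windows and 73.6% of those under gene-end peaks. The homeodomain palindrome, TAAT and ATTA with NN between them, was found in 0 of the 37 (Wilson upper limit 9.41%), against 0.324% of protein-coding windows. The E-box CANNTG was in 56.8% against 68.7%, TAAT in 45.9% against 51.5%, TGANTCA in 8.11% against 7.06%, CCAAT in 43.2% against 38.1% and TGACGTCA in 5.41% against 2.30%. Some windows overlap one another, a match is only a run of letters, and the windows cover a small part of the gene-proximal peaks, so the sequence of the other peaks was not analysed here.

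Inside genes, the density of gene-proximal peaks was highest closest to the edges of the gene, with its start and its end counted together. Per megabase (Mb) of sequence at the same distance there were 2.44 peaks (1.94 to 3.04, exact Poisson 95% interval) inside genes and 1.16 (0.827 to 1.59) outside genes at 1000 to 2000 bp, from 80 and 39 peaks. The ratio was 2.1 (1.41 to 3.16). From 2000 to 10000 bp the inside density ran from 0.894 to 1.28 and the outside density from 0.824 to 1.11 per Mb, and the intervals of the inside and outside values overlapped in every step of 1000 bp.

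**Figure D1:**
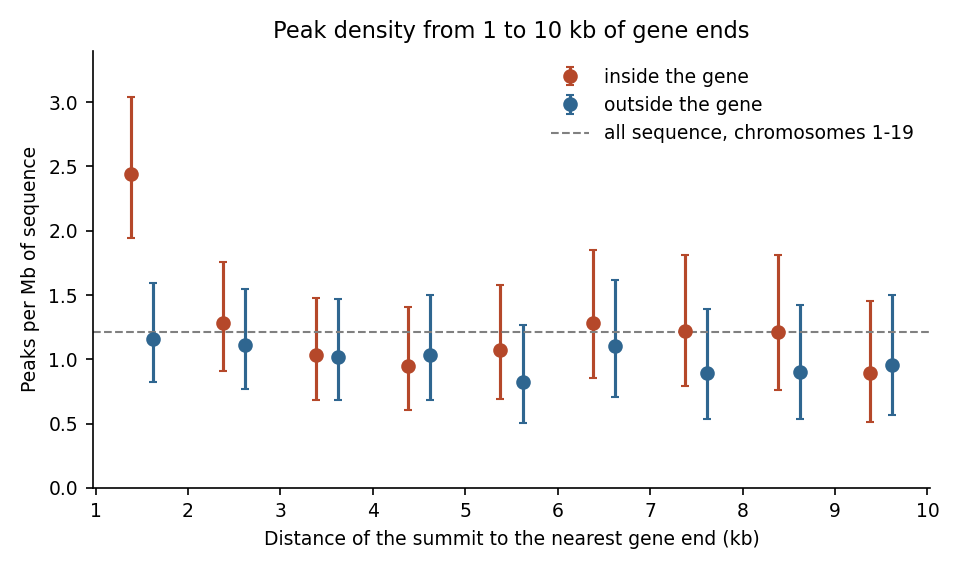
Peaks per Mb of sequence (y axis) in steps of 1 kb of distance from the summit to the nearest gene end (x axis), inside the gene (red) and outside it (blue), with exact Poisson 95% intervals; the dashed line is the density over all sequence of chromosomes 1 to 19. The inside value at 1 to 2 kb, 2.44, stands above the other values, which lie between 0.824 and 1.28.

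Over the whole range the density was 1.32 peaks per Mb (1.17 to 1.48) inside and 1.01 (0.886 to 1.15) outside, a ratio of 1.30 (1.09 to 1.56). Together, gene-proximal peaks had a density of 1.16 per Mb (1.06 to 1.27). The reference densities were 11.6 per Mb within 1000 bp of a gene end, 1.09 per Mb from 10000 to 50000 bp, 0.666 per Mb beyond 50000 bp and 1.21 per Mb over all sequence. The gene-proximal density was thus close to that of the next zone out and 1.42 times (1.28 to 1.57) that of all sequence beyond 10000 bp. Beyond 50000 bp the density was 1.07 per Mb (0.959 to 1.19) inside genes and 0.524 per Mb (0.477 to 0.573) outside them. Gaps in the assembly and sequence that short tags cannot be placed on were not taken out, and peaks close to each other are not independent, so the intervals are too narrow by an amount that was not tested.

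The start and the end of a gene differed inside genes. For 408 of the 516 peaks the strand of the nearest gene was taken from the promoter windows, and chromosome 18 was not used in this step. Among inside peaks the nearest end was the start of the gene in 175 of 230 (76.1%, Wilson interval 70.2 to 81.1%), and among outside peaks in 97 of 178 (54.5%, 47.2 to 61.6%). Together these were 272 of 408 (66.7%), against 1619 of 2323 (69.7%) over all peaks with a strand. Inside genes, the density was 2.02 per Mb (1.73 to 2.34) on the start side and 0.639 per Mb (0.481 to 0.831) on the end side, a ratio of 3.16 (2.32 to 4.36). Outside genes, it was 1.03 per Mb (0.835 to 1.26) upstream of starts and 0.954 per Mb (0.757 to 1.19) downstream of ends, a ratio of 1.08 (0.795 to 1.47). The inside end side was the sparsest of these zones.

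Part of the excess inside genes stood at transcription starts that lie within the gene span. Among inside peaks 60 of 283 (21.2%, 16.8 to 26.3%) had a summit within 1000 bp of a listed start of a protein-coding gene, and among outside peaks 4 of 223 (1.79%, 0.700 to 4.52%). The share was 785 of 2863 (27.4%) over all peaks used in this step and 692 of 840 (82.4%) among gene-end peaks. Within 1000 bp of a listed start, a small territory of 4.42 Mb inside genes, the inside density was 13.6 per Mb (10.4 to 17.5). The outside density there, from 4 peaks, was 10.1 per Mb (2.75 to 25.8). The 11.6 per Mb within 1000 bp of gene ends is not a like measure, since it pools the starts and ends of genes. Of the gene-end peaks with a strand, 702 of 724 (97.0%) were nearest to a start. When peaks and sequence within 1000 bp of a listed start were left out, a step chosen after the data were seen, the inside density was 1.08 per Mb (0.940 to 1.23) and the outside density 0.998 per Mb (0.870 to 1.14), a ratio of 1.08 (0.892 to 1.31). The start side inside genes remained denser without them, at 1.44 per Mb (1.19 to 1.72) against 0.596 per Mb (0.444 to 0.784) on the end side. The windows do not list every transcription start, so a part of further starts in this remainder was not tested.

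**Figure D2:**
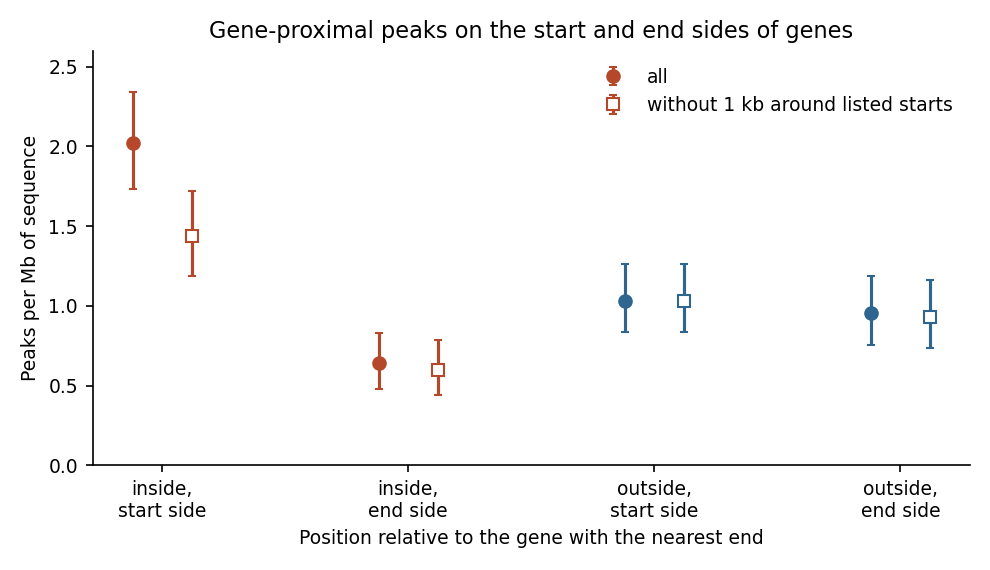
Peaks per Mb of sequence over 1 and up to 10 kb from gene ends (y axis), by position relative to the gene with the nearest end (x axis; inside in red, outside in blue), with exact Poisson 95% intervals. Filled circles use all peaks and open squares leave out 1 kb on each side of listed starts; inside genes the start side lies above the end side in both, at 2.02 and 1.44 against 0.639 and 0.596.

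A listed start lay over 10000 bp away from 94 inside and 109 outside peaks. Of the inside peaks within that distance, there were 30 inside peaks in the 1000 bp upstream of a start, 30 in the 1000 bp downstream, 35 from 1000 to 2000 bp downstream and 16 from 2000 to 3000 bp. Of the outside peaks within that distance, 19 stood from 1000 to 2000 bp upstream, between 6 and 13 in each further upstream step to 10000 bp, and at most 5 in any downstream step. A peak outside a gene and near its start is upstream of that start by construction. In the same way, a peak inside a gene is downstream of the outermost start of that gene by construction. Few outside peaks could lie within 1000 bp of a start, since the choice of the peaks removed the surroundings of gene ends.

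**Figure D3:**
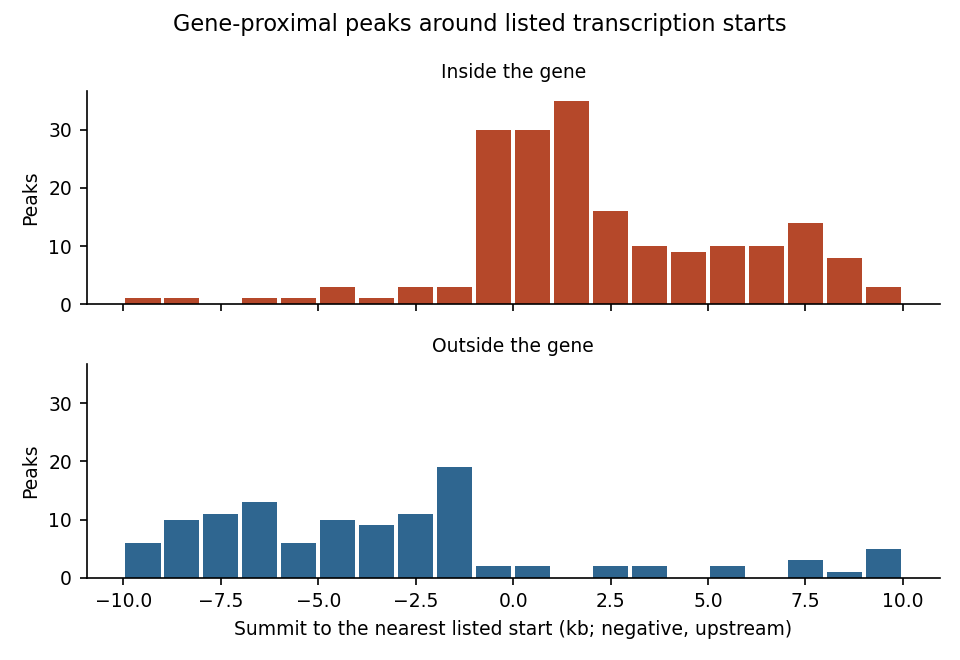
Number of gene-proximal peaks (y axis) by the signed distance of the summit to the nearest listed start of a protein-coding gene, in steps of 1 kb (x axis; negative is upstream), inside genes (red, upper panel) and outside genes (blue, lower panel). Inside counts are highest from 1 kb upstream to 2 kb downstream of a start, with 30, 30 and 35 peaks per step. The counts are not per Mb of sequence, and the 94 inside and 109 outside peaks over 10 kb from a start are not drawn. Inside peaks lie downstream of the outermost start of their gene by construction.

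Strength did not separate the groups at this depth. The fold enrichment, the pileup and the q-value of each peak are the authors', from the peak caller, where the pileup counts ChIP fragments at the summit and the fold is that pileup over the local input background, with 1 added to each. The median fold was 7.54 in inside peaks (7.08 to 7.59, exact order-statistic interval), 7.35 in outside peaks (6.99 to 7.59) and 7.35 in the other peaks of chromosomes 1 to 19 (7.08 to 7.40). The median pileup was 15 fragments in all 3 sets. A fold of 10 or more was reached by 38 inside peaks (13.2%, 9.80 to 17.7%) and 37 outside peaks (16.2%, 12 to 21.5%), where 14.5% of all peaks on these chromosomes reach it. The median width was 221 bp inside and 225 bp outside. The local background stood at its floor of 0.977 fragments in 121 inside peaks (42.2%) and 89 outside peaks (38.9%).

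The strongest inside peak was in Dpy19l3, which encodes a C-mannosyltransferase, at chr7:35747500-35747937. It had 48 fragments over a background of 1.04, a fold of 24.0 (17.8 to 31.7, from the exact Poisson interval of the pileup), and stood 6713 bp from the start of the gene. A weaker peak of the same gene, with 16 fragments and 8.33-fold (4.97 to 13.2), had its summit 435 bp away. The interval of the stronger peak does not overlap that of the weaker one. Gorab, which encodes a golgin, followed with 32 fragments over 0.977 and 16.7-fold (11.6 to 23.4) at chr1:163391370-163391748, 6619 bp from its end.

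Tmem44 and Abl2 each had a peak of 30 fragments and 15.7-fold (10.7 to 22.2). The Tmem44 peak stood 1958 bp from the end of the gene. Abl2 encodes a tyrosine kinase that acts on actin, and its peak, at 9993 bp, was the farthest from a gene end of all gene-proximal peaks. Zfp536, a zinc finger gene, reached 15.2-fold (10.3 to 21.6). Tle3, which encodes a Groucho corepressor, and Enpp2, which encodes the lysophosphatidic acid enzyme autotaxin, each had 26 fragments and 13.7-fold (9.10 to 19.8). Prr14 and Atp6ap1l were also at 13.7-fold, Igsf23 at 13.6-fold, and Tjp3 (a tight junction protein) and Add3 (adducin, a protein of the membrane skeleton) at 13.2-fold. The intervals of these inside peaks, the stronger Dpy19l3 peak included, all overlapped one another. The Add3 summit lay 267 bp upstream of a listed start and the Prr14 summit 652 bp upstream of one.

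Outside genes, Jun had the highest fold. Its product is a subunit of AP-1, and the peak at chr4:95053155-95053420 had 34 fragments over 0.977, 17.7-fold (12.4 to 24.5), 1050 bp upstream of the start. Dgat2, which encodes an enzyme of triglyceride synthesis, also had 34 fragments, but over a background of 1.56, which gave 13.7-fold (9.59 to 19). Gm46390, a predicted gene, had 14.7-fold (9.92 to 21.0) and Smim17 13.7-fold (9.21 to 19.7).

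Pold3 (a subunit of DNA polymerase delta), Gal (the neuropeptide galanin) and Prdx1 (a peroxiredoxin) each had 25 fragments and 13.2-fold (8.69 to 19.2). The Gal and Prdx1 peaks lay 8093 and 6242 bp upstream of the start, and the Pold3 peak lay 6053 bp beyond the end. Bin1, a membrane-shaping protein of muscle T-tubules, had 24 fragments and 12.6-fold (8.28 to 18.6) at 9630 bp, and a second peak inside the gene with 12 fragments and 6.58-fold. Blnk and Asb5 had 12.3-fold (8.03 to 18), and Preb and Gm42372 12.1-fold (7.88 to 18). The intervals of all these outside peaks overlap, so their order is not resolved by the counts.

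**Figure D4:**
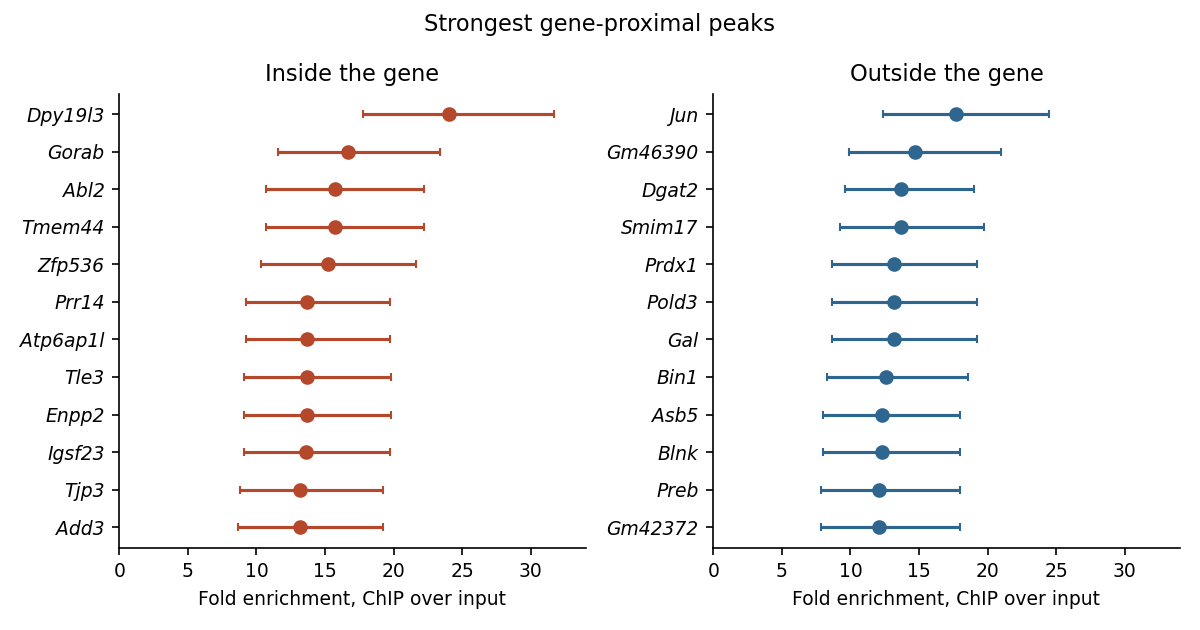
Fold enrichment of ChIP over input (x axis) for the 12 inside genes (left, red) and the 12 outside genes (right, blue) with the strongest gene-proximal peaks, with exact Poisson 95% intervals of the pileup. Folds run from 13.2 to 24.0 inside and from 12.1 to 17.7 outside, and within each panel all intervals overlap one another.

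Among the peaks with the lowest folds, backgrounds differed. The Chd2 peak had the lowest fold inside genes, 3.61 (2.0 to 6.10), from 12 fragments over 2.6, and a Zhx2 peak outside the gene had 3.66 (2.19 to 5.82) from 16 fragments over 3.64. The Zc3h7a peak inside the gene had 66 fragments over a background of 16.6, which is 32.0 input fragments before scaling, and a fold of 3.8 (2.95 to 4.82). The Rimbp3 peak outside the gene had 41 fragments over 14.6 (28.0 before scaling) and a fold of 2.70 (1.96 to 3.64), the lowest of the 516. Zc3h7a and Rimbp3 had the only gene-proximal peaks with a background of 5 or more, 1 inside and 1 outside, against 21 of the other 2442 peaks of chromosomes 1 to 19 (0.860%). At the limits of the distance range, the peak of Wdr66 at 998 bp (7.59-fold) was left out, and the nearest ones kept were those of Akirin2 at 1006 bp (8.60-fold) and Abl2 at 9993 bp (15.7-fold).

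The 516 peaks were nearest to 475 of 20665 protein-coding genes (2.30%), with an inside peak in 267 genes (1.29%), an outside peak in 218 (1.05%) and both kinds in 10. Of these genes, 439 had 1 peak, 31 had 2 and 5 had 3. Shares of the gene lists are given against this 2.30%, without a test, and the lists overlap. The lists were chosen with earlier results of these data known. Peaks at any distance were nearest to 20 of 37 muscle stem cell genes, 19 of 36 immediate early genes and 19 of 49 extracellular matrix genes. The share of all genes with a peak at any distance was not analysed here, and the 2.30% is not a reference for these counts. They show only that peaks nearest to these genes were not confined to this distance range.

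Genes of muscle stem cells had a gene-proximal peak in 8 of 37 cases (21.6%, Wilson interval 11.4 to 37.2%), 6 with an inside and 3 with an outside peak. Sdc4, which encodes the heparan sulfate proteoglycan syndecan-4 of the stem cell surface, had 3 inside peaks. They had 25, 16 and 15 fragments and 11.5-fold (7.63 to 16.8), 8.20-fold (4.89 to 13.0) and 8.09-fold (4.75 to 13.0). The summits of its stronger pair were 358 bp apart, nearer to the end than to the start of the gene, at chr2:164432688-164433261, and the third stood 4141 bp from the start. Cav1, the caveolin of membrane pits, also had 3. Its inside peak had 22 fragments and 11.6-fold (7.48 to 17.4), and those beyond the end had 18 and 15 fragments, with 8.11-fold (4.98 to 12.6) and 8.03-fold (4.71 to 12.9).

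Asb5, which encodes an ankyrin repeat protein with a SOCS box, had 24 fragments over 1.04 and 12.3-fold (8.03 to 18) at chr8:54548167-54548805, 1773 bp upstream of its start. Vcam1, which encodes an adhesion molecule of the stem cell surface, had 20 fragments over 0.977 and 10.6-fold (6.69 to 16.1) at chr3:116126143-116126711, with the summit in the gene span, 3358 bp from its edge. Itgb1, the beta-1 integrin, held 2 inside peaks with 8.20-fold (5.16 to 12.5) and 6.17-fold (3.79 to 9.56). Ncam1, a neural cell adhesion molecule that muscle stem cells also carry, had 7.84-fold (4.61 to 12.6) inside the gene. The homeobox gene Dbx1 had 6.66-fold (3.84 to 10.9), 1574 bp from its start and inside the gene. Fgfr4, a receptor of fibroblast growth factors, had 12 fragments and 6.37-fold (3.53 to 10.8), 2902 bp beyond its end. These peaks rested on 12 to 25 fragments and their intervals overlap.

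Immediate early and stress response genes, which cells switch on within minutes of a stimulus, had a gene-proximal peak in 7 of 36 cases (19.4%, 9.75 to 35.0%), with a median fold of 7.08. After Jun, Nr4a3 had 17 fragments over 1.04 and 8.82-fold (5.35 to 13.8), 2293 bp upstream of the gene. Zfp36, which encodes an RNA-binding protein that destabilises messages, had 14 fragments and 7.59-fold (4.38 to 12.4), 1946 bp upstream. Rhob, a small GTPase, had 7.08-fold (4.01 to 11.8) inside the gene. Fos had 6.01-fold (3.33 to 10.2) at 5725 bp upstream, Fosb 5.56-fold (2.93 to 9.81) inside the gene and Nr4a1 5.06-fold (2.59 to 9.15) at the listed start printed above. Of these 7 genes, 4 had their peak outside (Jun, Nr4a3, Zfp36 and Fos).

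Genes of FGF, IGF and receptor tyrosine kinase signalling had 6 of 38 (15.8%, 7.44 to 30.4%). Igfbp4, which binds insulin-like growth factors, had 8.33-fold (4.97 to 13.2) beyond its end, and Spry2, a feedback inhibitor of receptor kinases, 7.59-fold (4.38 to 12.4) at 1172 bp upstream of its start. The ligand gene Pdgfa had 7.08-fold (4.01 to 11.8) inside the gene. Fgfr4, the ligand gene Igf1 (6.07-fold, 3.28 to 10.5) and the phosphatase gene Dusp4 (4.69-fold, 2.54 to 8.08) made up the rest.

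Extracellular matrix and adhesion genes had 5 of 49 (10.2%, 4.44 to 21.8%). Besides Vcam1, Itgb1 and Ncam1, the collagen genes Col5a3 and Col1a2 had 7.08-fold (4.01 to 11.8) outside and 5.88-fold (3.18 to 10.1) inside the gene. Chromatin regulators had 5 of 55 (9.09%, 3.95 to 19.6%). The histone demethylase gene Kdm5b had 9.31-fold (5.72 to 14.4) at 3070 bp upstream of its start, and the chromatin remodelling gene Arid1a had 7.08-fold (4.01 to 11.8) at 459 bp upstream of a listed start. The methyltransferase gene Ezh1 had 6.66-fold, Smarca2 6.07-fold and Chd2 3.61-fold.

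The list of homeobox and paired box genes, which does not hold every such gene, had 3 of 52 (5.77%, 1.98 to 15.6%), and these 3 had inside peaks. Homeodomain genes that are not in the list had gene-proximal peaks of both kinds, outside at Zhx2 and inside at Zhx3 and Hmx2. These were picked after their values were seen. Prrx1, a factor of limb mesenchyme, and Lbx1, a factor of migrating muscle precursors, each had 16 fragments over 0.977 and 8.60-fold (5.13 to 13.6), and Dbx1 was the third. Adipogenic genes had 2 of 26 (7.69%, 2.14 to 24.1%), both beyond the end of the gene. Cebpa, a regulator of fat cell formation, had 22 fragments and 11.6-fold (7.48 to 17.4) at 5427 bp, and Pparg, the nuclear receptor of fat cells, 13 fragments and 6.86-fold (3.88 to 11.4) at 3141 bp. Cell cycle genes had 2 of 40 (5.0%), the tumour suppressor gene Trp53 at 7.08-fold inside the gene and the cyclin gene Ccne1 at 5.86-fold outside it.

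For the last 3 lists, and for those that follow, the interval of the share included the 2.30% of all genes. The bHLH, Klf, Sox and Zbtb factors had 2 of 46, Bhlhe40 at 6.64-fold and Npas2 at 5.52-fold, both circadian regulators. Insulin, mTOR and metabolic regulators had 2 of 46, the kinase gene Pdk1 at 8.59-fold and Pparg. The Notch pathway had 1 of 31, Dtx4 (a Deltex ubiquitin ligase) with 10.9-fold (7.34 to 15.7) and a second peak of 5.39-fold. The TGF-beta and BMP pathway had 1 of 40, Tgif1 at 8.20-fold (4.89 to 13.0), and calcium and cAMP signalling 1 of 42, Rcan1 at 10.2-fold (6.47 to 15.3) with a second peak of 6.47-fold. The Wnt pathway had 0 of 46 (up to 7.71%), and myogenic regulators and muscle differentiation genes 0 of 37 (up to 9.41%).

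Markers of other cells that a sort from muscle could hold, and genes of liver and neurons, were counted in the same way. Endothelial markers had 1 of 22 (4.55%, 0.807 to 21.8%), the transcription factor gene Erg with 20 fragments and 8.20-fold (5.16 to 12.5) inside the gene. Pericyte, smooth muscle and Schwann cell markers had 0 of 19 (up to 16.8%), leukocyte markers 0 of 22 (up to 14.9%), hepatocyte genes 0 of 24 (up to 13.8%) and neuronal synapse genes 0 of 25 (up to 13.3%). These upper limits lie above 2.30%, so a share at the level of all genes was not detectable in lists of this size.

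**Figure D5:**
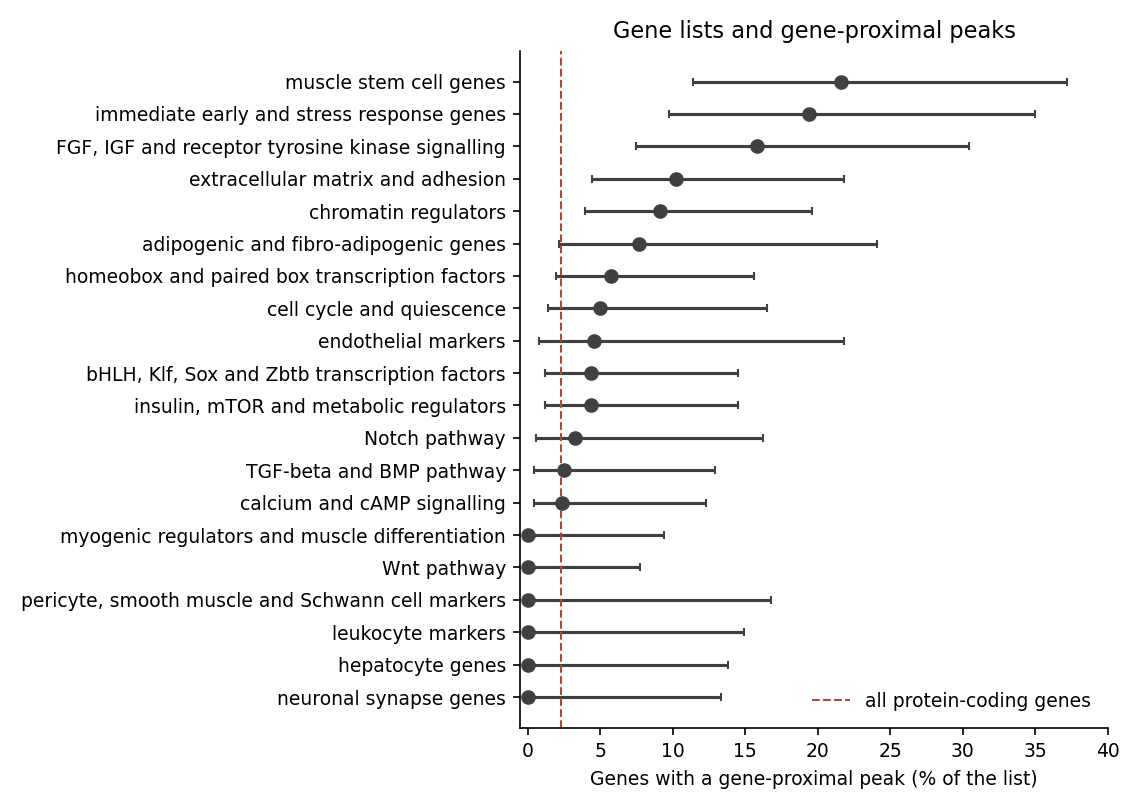
Share of the genes of each gene list shown that had a gene-proximal peak (x axis, percent) with Wilson 95% intervals; the dashed line is the 2.30% of all protein-coding genes. The muscle stem cell list (21.6%) and the immediate early list (19.4%) have the highest shares, and 6 lists have none.

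The other genes with 3 peaks were Osgin1, Plpbp and Ttc27. Osgin1, which encodes an oxidative stress response protein, had 8.82-fold, 7.08-fold and 6.07-fold, all inside, and the middle one had its summit 45 bp downstream of a listed start. Plpbp, a pyridoxal phosphate binding protein, had 8.59-fold and 6.86-fold outside, with summits 620 bp apart, and 5.77-fold inside. Ttc27 had 11.6-fold (7.48 to 17.4) inside, and 7.35-fold and 6.17-fold beyond its end. In all, 107 of the 516 peaks (20.7%, 17.5 to 24.4%) had another summit of the list within 10000 bp, 66 of 287 inside (23.0%) and 41 of 229 outside (17.9%). Among the other peaks of chromosomes 1 to 19 the share was 325 of 2442 (13.3%, 12 to 14.7%). That pool includes gene-end peaks, at 70 of 863 (8.11%, 6.47 to 10.1%). The share was 16.8% (14.3 to 19.6%) from 10000 to 50000 bp and 15.5% (13.2 to 18.2%) beyond 50000 bp. Both of these intervals overlap that of the gene-proximal peaks. A neighbour within 1000 bp was found at 15 inside and 13 outside peaks, and whether such pairs are 1 enriched region was not tested.

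The surroundings of inside and outside peaks were alike in gene number and differed in gene length. Ends of 2 or more protein-coding genes lay within 10000 bp of 67 inside peaks (23.3%, 18.8 to 28.6%) and 52 outside peaks (22.7%, 17.8 to 28.6%). The nearest gene had a median length of 38012 bp for inside peaks (31556 to 43907) and 24421 bp for outside peaks (19405 to 29607). A summit over 1000 bp from both ends of a gene cannot lie in a very short gene, so the choice of the peaks bears on this difference. An end of a long noncoding RNA gene lay within 1000 bp of 11 inside peaks (3.83%, 2.15 to 6.73%) and 19 outside peaks (8.30%, 5.38 to 12.6%), against 8.52% of all peaks on these chromosomes. By chromosome the density ran from 0.672 per Mb on chromosome 14 (0.358 to 1.15, 13 peaks) to 1.78 per Mb on chromosome 19 (1.15 to 2.62, 25 peaks), and these intervals touch at their ends.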

How the data were processed

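GRCm38, bcl2fastq 2.16, HISAT2 and MACS2 2.1.1 are named per the submitters' processing notes, with no role or order. Per the file headers, the authors ran MACS 2.1.1.20160309 in narrow mode with a q limit of 0.01 on 1 ChIP and 1 input library, unpooled. Tags were 50 bp and fragments 172 bp, and input depth was multiplied by 0.5199 to match ChIP. The deposited pileup is an unscaled coverage signal. The deposited fold is a ratio, pileup over local background after adding 1 to each. The caller also gave the deposited −log10 of each peak's p-value, and the deposited −log10 of its q-value.

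The background was recovered from fold and pileup, and counts as at its floor within 0.001. Positions are 1-based. Gene spans, listed starts, strands (16457 of 20665 genes) and promoter sequences came from RefSeq GRCm38.p6 tables. The RefSeq span covers all transcripts of a gene, so a start can lie inside it. Exons and introns were not analysed here. Territories were summed exactly from gene ends, a step that was tested on simulated data. Of 822 list entries, 808 matched genes of chromosomes 1 to 19. Python 3.11.15, numpy 2.4.6, pandas 2.3.3 and scipy 1.17.1 were used.

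The peaks, lists and tests were chosen with earlier results of these data known. Named are the 12 genes with the highest folds inside and outside, up to 3 per list, genes with 3 or more peaks and peaks at the distance limits. The other list members named, the genes beside high backgrounds and those in the closing observations were chosen after their values were seen, as were the motifs TGACGTCA and CCAAT, the use of listed starts and the repeat of the start and end comparison at the median q. The planned CTCF motif and the motif search in whole peaks were not run. No test was made, because peaks are not replicates. Results of 2 gene lists and 1 peak at the distance limit are not reported here.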

Additional observations from a re-analysis of the deposited data

How the results depend on the processing

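No paired analysis was possible because there was 1 ChIP and 1 input library and no test. Of 156 alternative values, 120 stayed within the interval of the main value or within 1.5 times a main count. The inside share was 50.7% with a lower distance limit of 2500 bp and 50.5% without peaks near listed starts, against 55.6%. Without those peaks, the inside density was 1.08 per Mb and its ratio to the outside density 1.08, because the densest territory was left out. With the stronger peaks alone (−log10 q of at least 8.40, the median), 261 peaks and 249 genes remained, the densities were 0.680 inside and 0.50 outside, and the ratio of start side to end side inside genes was 2.26. The median folds were then 8.60 inside and 8.82 outside, and the shares at 10-fold or more 25.7% and 32.7%, as weak peaks had been removed. An upper limit of 5000 bp left 299 peaks and 289 genes. With backgrounds above the floor, outside peaks had a median of 6.86-fold and 10% at 10-fold or more, and the cause was not tested. With 1 peak per run of summits within 10000 bp, the inside density was 1.16 per Mb. Of 88 list counts, 58 were equal to the main count, 26 lower and 4 higher. Those stronger peaks left 6 muscle stem cell, 3 immediate early, 2 FGF, IGF and receptor kinase, 3 extracellular matrix and 1 chromatin regulator genes, and 0 of the cell cycle and bHLH lists. A typical peak rests on 15 fragments, which limits any ranking.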

Other observations

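Some further genes with gene-proximal peaks are given as single values. They were chosen after their values were seen and do not stand for a group. Runx1, a transcription factor gene, had 21 fragments over 1.04 and 10.8-fold (6.86 to 16.2) inside the gene, 8403 bp from its end. Nfil3, a bZIP repressor gene, held 2 inside peaks of 9.61-fold (5.90 to 14.9) and 8.32-fold (5.04 to 13.0), the stronger 485 bp downstream of a listed start. Tbx4, a limb transcription factor gene, had 10.6-fold (6.69 to 16.1) beyond its end, and the netrin gene Ntn4 had 10.8-fold (6.86 to 16.2) and 5.88-fold (3.18 to 10.1) beyond its end. Both coactivator genes of the Hippo pathway had an inside peak near the start, Wwtr1 with 14 fragments and 7.59-fold (4.38 to 12.4) at 1704 bp and Yap1 with 12 fragments and 5.08-fold (2.81 to 8.58) at 1117 bp. Mdfic, which encodes an inhibitor of MyoD family proteins, had 10 fragments and 5.31-fold (2.80 to 9.35) inside the gene. The neighbouring genes Popdc3 and Bves, which encode Popeye domain proteins of muscle membranes, had 6.64-fold (3.96 to 10.5) and 6.05-fold (3.27 to 10.4), both inside.

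Gene families were also counted, chosen after the data were seen. Olfactory receptor genes had 3 of 1104 (0.272%), vomeronasal receptor genes 0 of 354 and keratin genes 0 of 53, against 2.30% of all protein-coding genes. A very short gene, such as Olfr16 with 1050 bp, cannot hold an inside peak. Gene length and the placement of short tags were not taken into account, so the 2.30% is not a like reference for each family. Solute carrier genes had 8 of 362 (2.21%), Zfp zinc finger genes 6 of 388 (1.55%) and Tmem genes 10 of 231 (4.33%). Gene-proximal peaks lay within 10000 bp of 9 annotated microRNA hairpins, and the closest was Mir5618, whose hairpin was 504 bp from the summit of a 9.80-fold peak in Tmem123. No share over all hairpins or all peaks stands beside this count, so it cannot be read as many or few.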
